A study of Mus musculus with 39 samples.

Results

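The unfolded protein and heat shock response genes described here are 39 genes that were chosen by name and read from the female and the male gene tables. All 39 were found in both tables, among 46333 genes in females and 54532 in males. CD11b+ microglia were isolated from the cerebrum of wild type (WT) and 5XFAD mice after chronic intermittent hypoxia (CIH) or normoxia (NX), and bulk RNA-seq was used to ask how genotype and CIH change the microglial transcriptome. The female mice were 10 months old and the male mice 8 months old, and both sexes entered CIH or NX at 4 months, so that exposure lasted 6 and 4 months. The sexes were deposited as separate tables and were analysed separately.

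The unfolded protein response is set off when misfolded proteins gather in the endoplasmic reticulum (ER). The ER sensors Ern1 (IRE1), Atf6 and Eif2ak3 (PERK) then signal through spliced Xbp1, cleaved ATF6 and translated Atf4, which raise the transcription of ER chaperones, disulfide isomerases, genes of ER-associated degradation (ERAD) and genes of amino acid supply. The heat shock response is its cytosolic counterpart, in which the factor Hsf1 binds arrays of heat shock elements and induces HSP70, HSP90 and their DnaJ partners. In brain tissue both programmes respond to protein aggregates and low oxygen, and the heat shock genes also respond rapidly to warming and tissue handling.

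The groups were WT NX (4 female and 5 male libraries), WT CIH (5 and 5), 5XFAD NX (5 and 5) and 5XFAD CIH (5 and 5). WT mice were C57Bl6 by the series description. By the methods, C57BL/6J females were crossed with 5XFAD males of a B6SJL line. 5XFAD mice carried human transgenes that are driven by the neuronal Thy1 promoter, so that the transgenes are expressed in neurons and not in the microglia sequenced. The series description gives CIH as cycles of 6.5% and 21% O2 in 90-s intervals for 8 h per day in the sleep phase, and the methods of the study give a slightly lower oxygen level and a longer daily session. NX animals were kept at 21% O2. Tissue of all groups, controls included, was digested with papain and DNase before selection with CD11b beads, which also bind other myeloid cells. The methods call the samples of a group independent, but the labels do not tie libraries to animals, and the p-values measure the spread between libraries. In bulk RNA, a shift in the share of a cell type cannot be told apart from a change of RNA level per cell.

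Library totals were 14731683 to 25906121 counts in females and 13457293 to 23095627 in males. The 8 microglial markers were at 20470 to 33348 summed CPM in every library, with WT libraries at 26739 to 31509 in females and 25657 to 33348 in males and 5XFAD libraries at 21555 to 25802 and 20470 to 23968. The 8 astrocyte markers summed to 127 to 676 CPM in 5XFAD and 159 to 229 in WT females, and to 225 to 1033 and 135 to 229 in males. Gfap, from this list and picked after its values were seen, was higher in 5XFAD CIH than WT CIH by a log2FC of 8.41 in females and 8.58 in males. The median sum of the 8 went from 179 CPM in WT CIH to 420 CPM in 5XFAD CIH females and from 216 to 517 CPM in males. Gfap alone does not show how the other markers moved. Under CIH the 8 border macrophage markers summed to 76.5 to 143 CPM in 5XFAD and 149.7 to 306 in WT females, and to 103 to 189.9 and 149 to 325 in males. The 8 endothelial markers summed to 152 to 234 CPM in 5XFAD CIH and 47.3 to 139 in WT CIH females, and to 108 to 170.1 and 62.8 to 142 in males. Both lists were separate between the genotypes in females and overlapped in males. Under NX the border macrophage markers were separate in both sexes, at 81.2 to 170.5 CPM in 5XFAD and 185.8 to 345 in WT females and at 104.6 to 145 and 229 to 331 in males, with 6 and 5 of the 8 lower. The endothelial sums overlapped there. The part of these shifts in the member differences was not tested. The methods of the study report a female normoxia sample as an outlier in several comparisons, without naming it. They give n = 5 per group, while female WT NX holds 4 libraries, so that the sample meant is not known. Here the library labelled 5XFAD NX 4 of the females went against its label. It lay at −42.5 on the first principal component, where the WT libraries lay between −58.2 and −27.9 and the other 9 5XFAD libraries between 35.9 and 69.9. In males, 5XFAD NX 4 and 5 lay at −1.94 and −3.65, apart from the other 3 libraries of their group (78.9 to 80.2). The total counts of members called under NX are given with and without them. These 3 libraries were picked because they lay towards WT on the component that separates the genotypes, so that larger genotype differences without them follow from that choice and support nothing. The same holds for each member value given below without them, also where its FDR is below 0.05.

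Promoters were read for the 6 members that passed the test in the most comparisons among those in the promoter table, which has no entry for Hsp90ab1 and Hspa8, to show which response elements they hold. RefSeq promoters (GRCm38.p6) were found for 32 of the 39 members. Lower case letters run 5′ to 3′ on the gene's strand over the 200 bases that end 1 base before the start of transcription, and capitals mark the bases of a match. By the GENCODE vM21 exons, on the same build, 200 bases of the Hspe1 and Pdia3 windows and 169 of the Hspd1 window are transcribed, and these 3 windows are not printed.
Calr (chr8:84846932-84847131, minus strand): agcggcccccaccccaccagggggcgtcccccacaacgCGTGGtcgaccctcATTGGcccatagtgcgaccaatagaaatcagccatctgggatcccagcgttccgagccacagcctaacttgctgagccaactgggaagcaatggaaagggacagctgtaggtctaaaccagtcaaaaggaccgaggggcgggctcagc
Sdf2l1 (chr16:17132384-17132583, minus strand): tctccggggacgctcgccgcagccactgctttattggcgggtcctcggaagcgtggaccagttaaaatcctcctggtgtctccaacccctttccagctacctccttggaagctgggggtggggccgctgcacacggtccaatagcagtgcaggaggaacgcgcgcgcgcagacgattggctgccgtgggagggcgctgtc
Trib3 (chr2:152344061-152344260, minus strand): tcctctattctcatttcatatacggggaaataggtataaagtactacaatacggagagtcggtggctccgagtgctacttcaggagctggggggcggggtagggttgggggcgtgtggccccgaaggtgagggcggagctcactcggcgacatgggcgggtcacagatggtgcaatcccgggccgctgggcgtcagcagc
Short stretches with a match are shown for Trib3, for Hspe1, and for 4 members picked after their values were seen. Those of Trib3 and Hsph1 lie after the start of transcription.
Trib3 (chr2:152344029-152344056, minus strand): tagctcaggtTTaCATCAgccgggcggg
Hspe1 (chr1:55088053-55088082, plus strand): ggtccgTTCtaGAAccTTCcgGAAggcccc
Asns (chr6:7693215-7693242, minus strand): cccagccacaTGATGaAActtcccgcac
Herpud1 (chr8:94386307-94386334, plus strand): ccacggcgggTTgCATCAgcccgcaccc
Hspa5 (chr2:34772020-34772048, plus strand): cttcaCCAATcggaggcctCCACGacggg
Hsph1 (chr5:149636287-149636308, minus strand): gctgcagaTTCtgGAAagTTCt

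Motifs were searched on both strands of the 300-base windows, which hold 250 bases before the start and 50 after it. The ER stress response element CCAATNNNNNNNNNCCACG was found in 7 of the 32 member promoters, namely those of Calr, Canx, Creld2, Dnajc3, Hsp90b1, Hspa5 and Pdia6, and in 0.119% of all 32851 promoters. It lies at −162 to −144 in Calr and at −65 to −47 in Hspa5, the gene of the chaperone BiP. The ATF4 core TGATGNAA was found in Asns, Chac1, Herpud1 and Trib3, and in 3.97% of all promoters. The match in Trib3 lies at 15 to 22 after the start and that in Asns at −23 to −16. A heat shock element of 3 units, GAANNTTCNNGAA, was found in Hspe1 and Hsph1 and in 0.603% of all promoters, and a pair of overlapping matches spans −89 to −72 in Hspe1. The match in Hsph1 lies at 37 to 49 after the start. The XBP1 and ATF6 core TGACGTGG was found in none of the 32 and in 0.676% of all promoters. Sdf2l1, Pdia3 and Hspd1 held none of these letters in their windows. Hspd1 and Hspe1 lie head to head on chromosome 1 and their windows overlap by 4 bases.

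The members covered more than 3 orders of magnitude in level. On the FPKM scale, which is per transcript length, Calr was the highest member in both sexes, with a median of 455 FPKM over the female and 340 FPKM over the male libraries. Hspa8, Hsp90b1, Hsp90ab1 and Pdia3 followed in females, and Pdia3, Hsp90ab1, Hspa8 and P4hb in males. Trib3, Asns and Chac1 were the lowest in both sexes. Chac1, which degrades glutathione in the integrated stress response, was at 0 to 1.46 CPM in females and 0 to 1.93 CPM in males and failed the filter in every pair of groups.

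**Figure D1:**
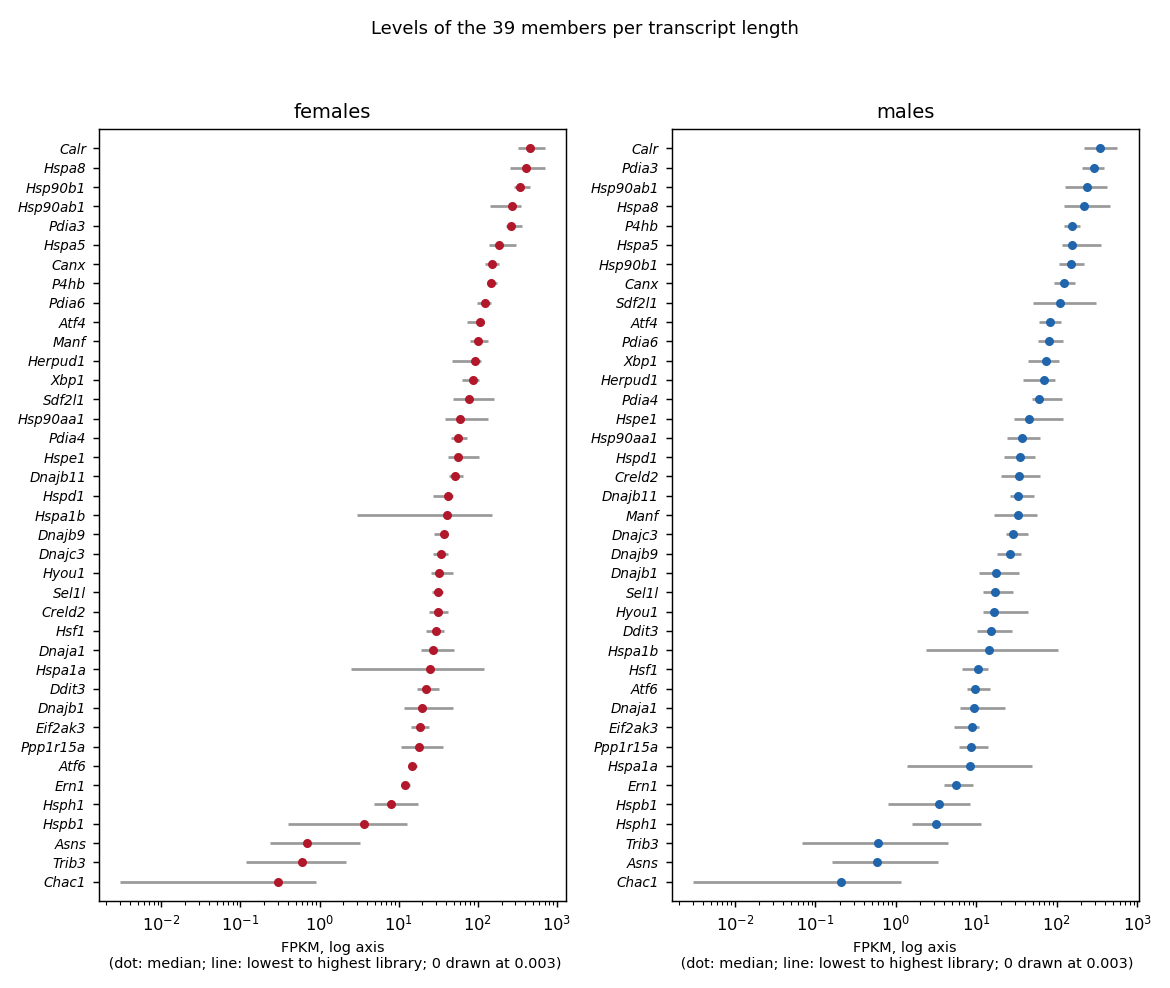
Levels of the 39 members in FPKM on a log axis, with females on the left and males on the right. Dots are medians over all libraries of a sex and lines run from the lowest to the highest library, with levels of 0 drawn at 0.003. Calr leads both panels, Chac1 ends both, and Hspa1a and Hspa1b have wide ranges.

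A member is named as higher or lower in the group named second where the FDR was below 0.05, that is, where the p of edgeR's quasi-likelihood test, adjusted over all genes tested by Benjamini and Hochberg, was below 0.05. Log2 fold changes (log2FC) are given with their SE. Under CIH, 18 of 38 members tested were higher and 3 lower in 5XFAD females, where 26.2% and 25.7% of all genes were higher and lower. In males 19 of 38 were higher and 2 lower, against 25.3% and 23.7% of all genes. Under NX, 6 of 38 were higher and none lower in 5XFAD females (7.26% and 6.61% of all genes), and 12 members had an unadjusted p below 0.05, as did 34.1% of all genes. Without 5XFAD NX 4 of the females this count was 24 (52.2% of all genes). The same comparison in males gave 9 higher and 3 lower (10.4% and 7.37%).

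Of the 4 pairs of CIH against NX, WT males were the only one with members past the test. In WT males 8 of 37 members were higher and 3 lower under CIH, against 13.6% and 15% of all genes. With all 4 male groups in one fit no gene passed this test, members included, as given below. In WT females (0% and 0% of genes), 5XFAD females (0% and 0%) and 5XFAD males (0% and 0%) no member passed the edgeR test. There 2 of 37, 1 of 38 and 15 of 38 members had an unadjusted p below 0.05 (3.87%, 3.22% and 3.3% of all genes), and DESeq2 called none. The 15 in 5XFAD males fell to 6 without 5XFAD CIH 1 (2.55% of all genes) and to 8 without 5XFAD NX 4 (2.52%), and the count was 15 without 5XFAD NX 4 and 5 (9.11%). In 5XFAD females the count was 4 without 5XFAD NX 4 (7.47%) or without 5XFAD CIH 2 (3.13%), and 0 without 5XFAD NX 3 (2.24%). In WT females single omissions also gave 0 to 4, with 4 without WT NX 4 (6.23%) and 0 without WT CIH 2 (2.08%), among others. With an added limit of an absolute log2FC above 1, as in the DEG rule of the study, the members left were Trib3 and Hspa1b in females under NX, Sdf2l1 and Trib3 in females under CIH and in males under NX, and Calr, Sdf2l1, Trib3, Asns and Hspe1 in males under CIH. For WT males under CIH against NX they were Hspa1b, Hsph1 and Dnaja1.

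**Figure D2:**
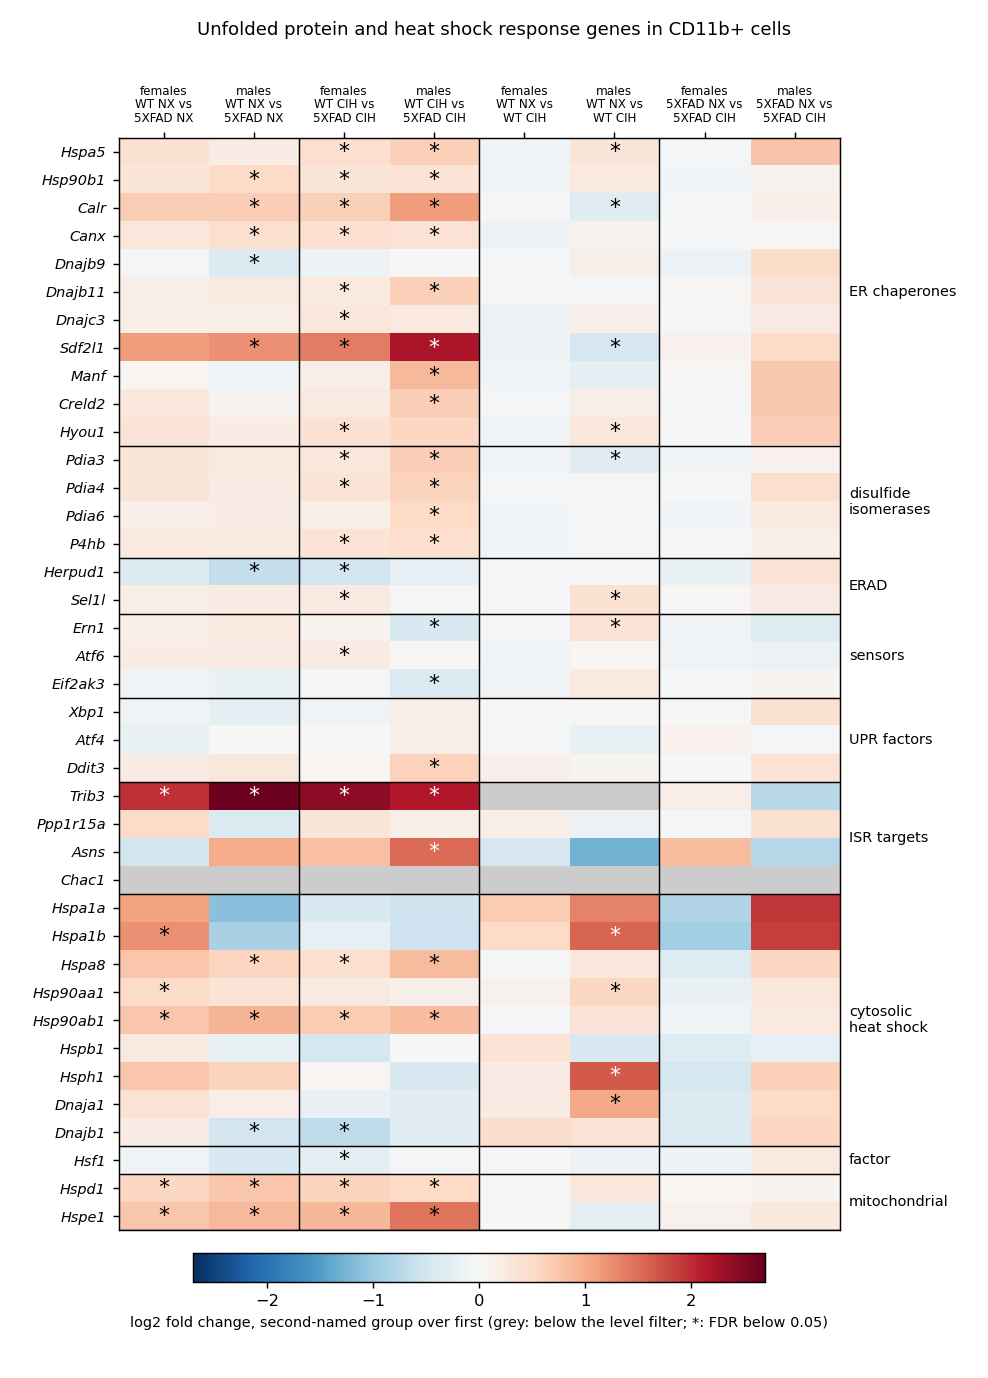
Log2 fold changes of the 39 members (rows, grouped by role) in 8 comparisons (columns, second-named over first-named group). Red is higher and blue lower in the second group, grey marks a member below the level filter, and asterisks mark an FDR below 0.05. The 4 genotype columns on the left are mostly red, and the asterisks in the 4 columns of CIH against NX are confined to WT males.

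The counts of genotype calls depended on scaling and, in females under NX, on single libraries. Scaling by library size alone in place of TMM moved the median of all genes to −0.21 in females and −0.43 in males under CIH, and gave 8 members higher and 7 lower in females (17.5% and 42.2% of all genes) and 9 higher and 7 lower in males (14.9% and 46%). The median log2FC of the members was 0.25 in females and 0.37 in males with TMM (all genes −0.018 and −0.060) and 0.059 and 0.0015 with library size scaling. Without the library labelled 5XFAD NX 4, the female comparison under NX gave 19 members higher and 1 lower in place of 6, while the shares of all genes rose to 21.8% and 22.2%. Leaving out one other library there gave 0 to 5 members and 0.301% to 6.52% of all genes, with 0 without 5XFAD NX 2 or without WT NX 2, 3 or 4, 1 without 5XFAD NX 5, 2 without 5XFAD NX 3 and 3 without 5XFAD NX 1. Each of the 6 members failed the test in 7 to 10 of its alternatives. In males under NX, library size scaling gave 6 higher and 6 lower (7.25% and 14.7% of all genes), and leaving out 5XFAD NX 4 and 5 together gave 14 higher and 3 lower (17.9% and 15.6%). The 17 isolation response genes, immediate early genes that respond to the handling of cells, gave 2 higher and none lower in 5XFAD females under NX, 1 higher and 7 lower in males under NX, 3 higher and none lower in females under CIH and 6 higher and 1 lower in males under CIH. Under NX they gave 4 higher and none lower without female 5XFAD NX 4, and 2 higher and 7 lower without male 5XFAD NX 4 and 5. The part of handling in the member counts was not tested.

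Of the 11 ER chaperones, 8 were higher in 5XFAD under CIH in each sex, and none was lower, where 26.2% and 25.7% of all genes were higher and lower in females and 25.3% and 23.7% in males. With all 4 groups in one fit the female count was 5 (44.9% of all genes called in either direction). With library size scaling 3 were higher and 1 lower in each sex, against 17.5% and 42.2% of all genes in females and 14.9% and 46% in males. Under NX none was higher in females (7.26% of all genes) and 4 were higher and 1 lower in males (10.4% and 7.37%). Without female 5XFAD NX 4 the female count was 5 higher (21.8% of all genes), and without male 5XFAD NX 4 and 5 the male counts were 5 higher and 1 lower (17.9% and 15.6%). Sdf2l1, a cochaperone of BiP, had the largest log2FC of the 11 in all 4 genotype comparisons. In females its CPM was 84.7, 71.7, 68.1 and 53.0 in WT NX and 52.0, 54.9, 67.6, 63.3 and 67.7 in WT CIH. It was 207, 159, 148, 46.3 and 193 in 5XFAD NX and 144, 166, 142, 164 and 181 in 5XFAD CIH. The value of 46.3 belongs to the library labelled 5XFAD NX 4, and all other 5XFAD libraries lay above all WT libraries.

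Sdf2l1 in males was 68.4, 101, 80.7, 123 and 81.0 CPM in WT NX, 85.3, 58.3, 66.1, 57.1 and 68.9 in WT CIH, 292, 222, 288, 119.6 and 136 in 5XFAD NX and 339, 294, 305, 253 and 317 in 5XFAD CIH. Under CIH the genotypes did not overlap, and the male difference (log2FC 2.20 ± 0.13, FDR = 1.02e-08) was above the female one (log2FC 1.38 ± 0.094, FDR = 7.68e-08). Under NX, 5XFAD NX 4 and 5 were the lowest of their group, 5XFAD NX 4 lay within the WT NX range, and the difference was 1.23 ± 0.26 (FDR = 0.0052) with them and larger without both (log2FC 1.57 ± 0.16, FDR = 2.84e-06). In females under NX it was 1.12 ± 0.33 with an FDR of 0.0501 and did not pass the test. The value without 5XFAD NX 4 (log2FC 1.34 ± 0.15, FDR = 0.000102) rests on the choice of that library.

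Calr encodes calreticulin, a calcium-binding lectin chaperone of the ER. Its CPM in females was 808, 722, 703 and 604 in WT NX, 618, 619, 785, 741 and 676 in WT CIH, 1611, 1179, 1041, 519.7 and 1318 in 5XFAD NX and 984, 1102, 1051, 1068 and 1203 in 5XFAD CIH. In males it was 688, 909, 921, 1021 and 874 in WT NX, 837, 686, 703, 647 and 679 in WT CIH, 1599, 1539, 1671, 942 and 1185 in 5XFAD NX and 1619, 1579.9, 1457, 1415 and 1565 in 5XFAD CIH. The genotypes were separate under CIH in both sexes, with a 1.57-fold difference in females (log2FC 0.65 ± 0.081, FDR = 1.96e-05) and a 2.20-fold difference in males (log2FC 1.14 ± 0.10, FDR = 3.98e-07). In males under NX Calr was higher in 5XFAD (log2FC 0.67 ± 0.17, FDR = 0.0143), with 5XFAD NX 4 within the WT range. It was also higher without 5XFAD NX 4 and 5 (log2FC 0.87 ± 0.11, FDR = 2.39e-05). In females under NX the FDR was 0.0822 with all libraries and Calr did not pass the test. Its value without 5XFAD NX 4 (log2FC 0.85 ± 0.14, FDR = 0.000866) rests on the choice of that library.

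Hspa5, which encodes BiP, the chaperone that holds the ER sensors inactive, was 377, 392, 446, 458 and 416 CPM in WT CIH and 395, 646, 573, 621 and 590.0 CPM in 5XFAD CIH females. In males it was 706, 532, 771, 726 and 826 CPM in WT CIH and 1523, 1433, 1022, 858 and 613 CPM in 5XFAD CIH. It was higher in 5XFAD in both sexes (log2FC 0.43 ± 0.11, FDR = 0.00522 in females and log2FC 0.65 ± 0.21, FDR = 0.0219 in males), and in each sex 1 5XFAD library lay within the WT range. With library size scaling the FDR was 0.0926 in females and 0.303 in males, and with all 4 groups in one fit it was 0.0608 in females. Leaving out male 5XFAD CIH 1 or 2 or WT CIH 2 moved the male FDR to between 0.0508 and 0.0619.

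Hsp90b1 (GRP94) and Canx (calnexin, the membrane-bound partner of calreticulin) were higher in 5XFAD in females under CIH and in males under both conditions, with log2FC between 0.34 and 0.52. In males under NX both also passed the test without 5XFAD NX 4 and 5 (log2FC 0.49 ± 0.11, FDR = 0.00245 for Hsp90b1 and log2FC 0.35 ± 0.088, FDR = 0.00659 for Canx). In females under NX neither passed it with all libraries. Their values without 5XFAD NX 4 (log2FC 0.43 ± 0.13, FDR = 0.0187 and log2FC 0.43 ± 0.10, FDR = 0.00563) rest on the choice of that library. With library size scaling the male log2FC of Hsp90b1 under CIH was −0.0072 and that of Canx 0.010, and the male call of Hsp90b1 under CIH was lost in 6 of 17 alternatives. The same scaling ended the calls of Hsp90b1 and Canx in males under NX, of Hsp90b1, Dnajb11, Dnajc3 and Hyou1 in females under CIH, and of Canx, Dnajb11 and Creld2 in males under CIH. Dnajb11, a DnaJ partner of BiP, was higher under CIH in females (0.26 ± 0.074) and males (0.64 ± 0.11). Dnajc3 and Hyou1 were higher under CIH in females (0.31 ± 0.077 and 0.42 ± 0.11) and at 0.27 ± 0.13 (FDR = 0.0963) and 0.55 ± 0.27 (FDR = 0.107) in males. Manf, a secreted protein released on ER stress, was at 107, 72.2, 105, 83.0 and 105 CPM in male WT CIH and 199, 175, 170.3, 157 and 146 CPM in male 5XFAD CIH. The groups were separate (log2FC 0.88 ± 0.13, FDR = 7.35e-05), whereas Manf in females differed by 0.16 ± 0.094 (FDR = 0.171). Creld2 was higher in males (0.66 ± 0.15) and at 0.25 ± 0.10 in females (FDR = 0.0605). Dnajb9 was the exception in direction. It was lower in 5XFAD NX than WT NX males (log2FC −0.36 ± 0.11, FDR = 0.037), at 49.1, 55.7, 50.3, 45.3 and 59.1 against 64.5, 69.3, 74.6, 66.3 and 62.0 CPM, without overlap. It was also lower without 5XFAD NX 4 and 5 (log2FC −0.37 ± 0.10, FDR = 0.0134), and failed the test in 9 of 18 alternatives, with FDR up to 0.15.

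**Figure D3:**
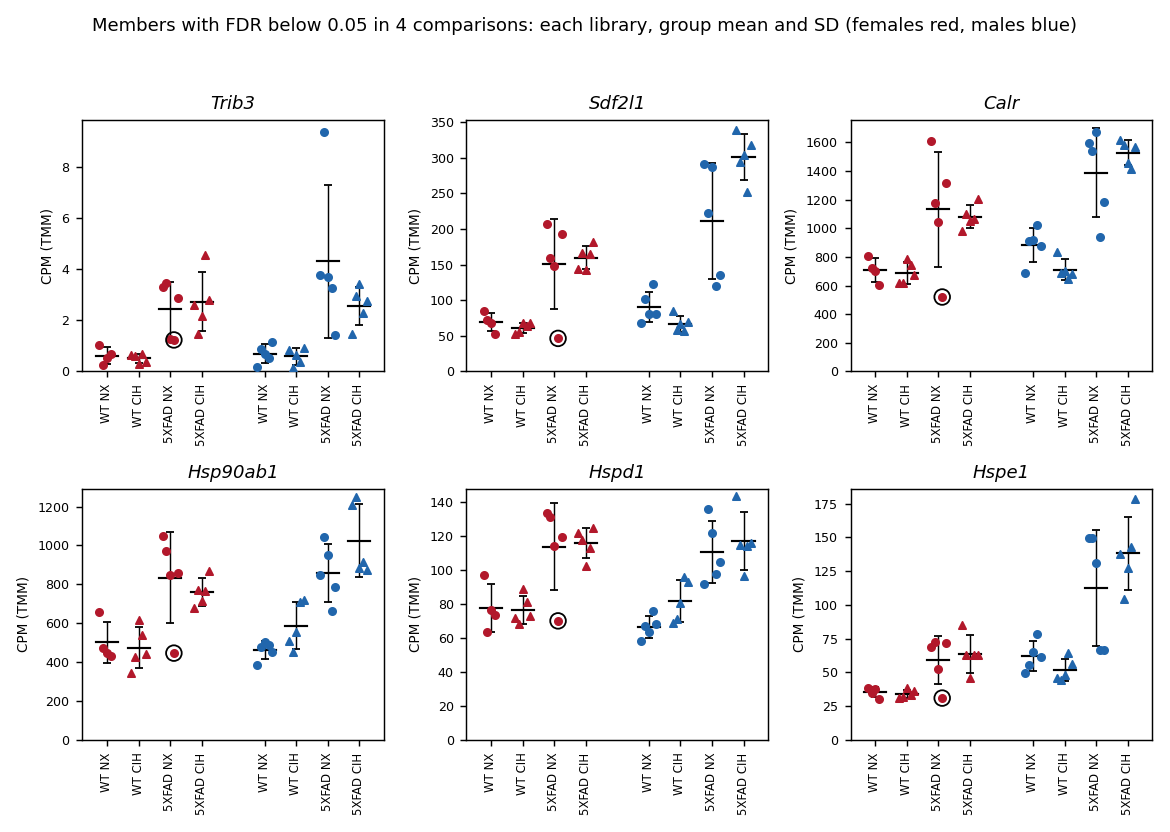
CPM (TMM scale, linear axis from 0) of the 6 members with an FDR below 0.05 in 4 comparisons, in every library, with circles for NX, triangles for CIH, females in red and males in blue. Horizontal bars are group means and error bars the SD over 4 or 5 libraries. The ring marks the library labelled 5XFAD NX 4 of the females, which lies near the WT libraries in all 6 panels, and the 5XFAD means lie above the WT means of the same sex and treatment in each panel.

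The disulfide isomerases, which form and rearrange disulfide bonds of ER proteins, were higher in 5XFAD under CIH for 3 of 4 members in females and 4 of 4 in males, against 26.2% and 25.3% of all genes. With library size scaling 1 of 4 was higher in each sex, P4hb in females and Pdia3 in males, against 17.5% and 14.9% of all genes. Pdia3 (ERp57) works with calreticulin and calnexin on glycoproteins. In females it was 611, 567, 595, 681 and 612 CPM in WT CIH and 700.4, 723, 764, 741 and 873 CPM in 5XFAD CIH, without overlap (log2FC 0.31 ± 0.066, FDR = 0.00148). In males it was 778, 689.5, 729.5, 666 and 722 CPM in WT CIH and 1154, 1140.1, 1102, 1004 and 1159 CPM in 5XFAD CIH (log2FC 0.66 ± 0.088, FDR = 2.63e-05). All male 5XFAD CIH libraries again lay above all WT CIH libraries. Pdia4 was higher in both sexes (0.37 ± 0.091 and 0.61 ± 0.17), as was P4hb, the founding member of the family (0.37 ± 0.061 and 0.45 ± 0.083). Pdia6 was higher in males (0.53 ± 0.13) and at 0.16 ± 0.08 in females (FDR = 0.116). Under NX none of the 4 passed the test in either sex, and all 4 differences were positive in both. Without female 5XFAD NX 4, and without male 5XFAD NX 4 and 5, 3 of the 4 were higher in each sex, against 21.8% and 17.9% of all genes.

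Herpud1, which recruits the ERAD ubiquitin ligase complex, went the other way. In females it was 182, 171, 163, 168 and 164 CPM in WT CIH and 94.0, 139, 135, 122 and 106 CPM in 5XFAD CIH, without overlap (log2FC −0.51 ± 0.09, FDR = 0.000366). In males under NX it was 182, 162, 219.8, 186 and 201 CPM in WT and 137, 151, 129, 87.5 and 101 CPM in 5XFAD, again without overlap (log2FC −0.64 ± 0.15, FDR = 0.0113), and it was also lower without 5XFAD NX 4 and 5 (log2FC −0.44 ± 0.11, FDR = 0.00477). In females under NX it did not pass the test with all libraries. Its value without 5XFAD NX 4 (log2FC −0.50 ± 0.15, FDR = 0.0202) rests on the choice of that library. Male 5XFAD CIH libraries (129 to 190.2 CPM) overlapped with WT CIH (162 to 208 CPM), with a difference of −0.23 ± 0.12 and an FDR of 0.123. Sel1l, the scaffold of the same ligase complex, was higher in 5XFAD CIH females (log2FC 0.25 ± 0.07, FDR = 0.00871) and at 0.025 ± 0.17 in males (FDR = 0.914). With library size scaling the female call was lost (log2FC 0.060, FDR = 0.499).

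Of the 3 sensors and 3 transcription factors, 1 was higher in 5XFAD females under CIH, and 1 was higher and 2 were lower in males (26.2% of all genes were higher in females, and 25.3% higher and 23.7% lower in males). Atf6 was higher in 5XFAD CIH females (log2FC 0.23 ± 0.062, FDR = 0.00733), and Ern1 and Eif2ak3 were lower in 5XFAD CIH males (log2FC −0.40 ± 0.15, FDR = 0.0357 and log2FC −0.36 ± 0.14, FDR = 0.0483). Atf6 did not pass the test with all 4 groups in one fit or with library size scaling, where the log2FC was 0.034 (FDR = 0.611). Ern1 and Eif2ak3 each failed it in 7 of 17 alternatives, with FDR up to 0.098 and 0.112. Xbp1 and Atf4 passed the test in no comparison of groups. Gene counts do not show Xbp1 splicing or Atf4 translation, the steps at which both are mainly controlled. Ddit3 (CHOP), the proapoptotic factor downstream of Atf4, was 26.4, 23.4, 21.8, 26.0 and 28.7 CPM in male WT CIH and 36.0, 22.8, 37.7, 47.0 and 48.0 CPM in 5XFAD CIH. All but 1 of the 5XFAD libraries were above WT (log2FC 0.63 ± 0.17, FDR = 0.00671), and with library size scaling the call was lost (log2FC 0.23, FDR = 0.209). In females Ddit3 was at 24.7 to 36.2 CPM in WT CIH and 25.7 to 34.0 CPM in 5XFAD CIH (FDR = 0.699).

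Among targets of the integrated stress response, Trib3, a pseudokinase that is induced by Atf4 and Ddit3, had the largest fold change of all members in 3 of the 4 genotype comparisons, and was second to Sdf2l1 in males under CIH. It was expressed at very low levels. In females its CPM was 1.02, 0.237, 0.517 and 0.669 in WT NX, 0.630, 0.584, 0.291, 0.676 and 0.356 in WT CIH, 3.29, 3.45, 1.28, 1.23 and 2.88 in 5XFAD NX and 2.59, 1.47, 2.16, 4.57 and 2.80 in 5XFAD CIH. In males it was 0.152, 0.886, 0.697, 0.539 and 1.16 in WT NX, 0.822, 0.150, 0.646, 0.374 and 0.922 in WT CIH, 3.78, 9.37, 3.70, 3.25 and 1.41 in 5XFAD NX and 1.46, 2.93, 3.42, 2.28 and 2.76 in 5XFAD CIH. Every 5XFAD library lay above every WT library of the same sex, and these values rest on 4 to 69 reads in females and 3 to 123 in males. The log2FC was 1.96 ± 0.47 in females under NX (FDR = 0.0309), 2.41 ± 0.36 under CIH (FDR = 9.3e-05), 2.65 ± 0.58 in males under NX (FDR = 0.00682) and 2.17 ± 0.47 under CIH (FDR = 0.00163). Under NX the values were log2FC 2.09 ± 0.44, FDR = 0.00364 without female 5XFAD NX 4 and log2FC 3.04 ± 0.57, FDR = 0.000867 without male 5XFAD NX 4 and 5.

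Asns, the asparagine synthetase, was 0.695, 0.852, 0.452, 0.802 and 0.922 CPM in male WT CIH and 1.08, 1.88, 2.90, 1.54 and 3.21 CPM in male 5XFAD CIH. The groups did not overlap (log2FC 1.53 ± 0.41, FDR = 0.00664). In male WT NX it was 0.811, 2.72, 1.35, 0.606 and 3.58 CPM, so that WT NX reached the range of both 5XFAD groups, and the FDR under NX was 0.308. In females 5XFAD CIH differed from WT CIH by 0.82 ± 0.52 (FDR = 0.205). Ppp1r15a (GADD34), which restores translation after stress, passed the test in no pair of groups.

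The cytosolic heat shock members split into constitutive and inducible genes. The constitutive chaperones Hspa8 (HSC70) and Hsp90ab1 (HSP90 beta) were higher in 5XFAD. Hsp90ab1 in females was 346, 424, 619, 538 and 441 CPM in WT CIH and 679, 769.7, 713, 766 and 869 CPM in 5XFAD CIH, without overlap (log2FC 0.68 ± 0.14, FDR = 0.000939). In males it was 507, 454, 554, 708 and 717 CPM in WT CIH and 1208, 1247, 881, 915 and 873 CPM in 5XFAD CIH (log2FC 0.83 ± 0.16, FDR = 0.000529). It was also higher under NX in females (log2FC 0.75 ± 0.21, FDR = 0.0458) and males (log2FC 0.91 ± 0.14, FDR = 0.000473). Without the libraries that stood apart the NX values were log2FC 0.88 ± 0.14, FDR = 0.000701 in females and log2FC 1.05 ± 0.10, FDR = 2.43e-06 in males. Hspa8 was higher under CIH in both sexes (0.44 ± 0.14 in females and 0.86 ± 0.17 in males) and under NX in males (0.58 ± 0.16), also without 5XFAD NX 4 and 5 (log2FC 0.73 ± 0.13, FDR = 0.00048). In females under NX it did not pass the test with all libraries. Its value without 5XFAD NX 4 (log2FC 0.87 ± 0.19, FDR = 0.00402) rests on the choice of that library. The female call under CIH was lost with library size scaling and with all 4 groups in one fit (FDR up to 0.15), and the male call under NX in 8 of 18 alternatives (FDR up to 0.112).

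The inducible members varied widely between libraries of one group. Hspa1b, an inducible HSP70, was 12.8, 25.4, 381, 153 and 88.5 CPM in WT CIH females and 8.85, 215, 128, 97.0 and 128 CPM in 5XFAD CIH females. Hspa1a and Hspa1b are neighbouring, nearly identical genes on chromosome 17, and reads can be split between them. In females under NX Hspa1b was 98.6, 90.6, 80.0 and 109 CPM in WT and 98.4, 279, 277, 264 and 152 CPM in 5XFAD. It was called as higher (log2FC 1.22 ± 0.31, FDR = 0.0352), and the lowest 5XFAD library, 5XFAD NX 1, lay within the WT range. Hspa1b was also higher without 5XFAD NX 4 (log2FC 1.08 ± 0.29, FDR = 0.0138). In males under NX the difference was −0.87 ± 0.54 (FDR = 0.324). Hsp90aa1 was higher in 5XFAD NX females (log2FC 0.53 ± 0.10, FDR = 0.0193) with no overlap, at 183, 156, 157 and 158 CPM in WT and 235, 256, 263, 207 and 192 CPM in 5XFAD. This separation included the library labelled 5XFAD NX 4, and Hsp90aa1 was also higher without it (log2FC 0.52 ± 0.10, FDR = 0.00262).

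Dnajb1, the inducible HSP40, was lower in 5XFAD than in WT under CIH in females (log2FC −0.68 ± 0.23, FDR = 0.025) and under NX in males (log2FC −0.49 ± 0.15, FDR = 0.0417). The latter did not pass the test without male 5XFAD NX 4 and 5 (log2FC −0.39 ± 0.15, FDR = 0.0598) and failed it in 11 of 18 alternatives in all. In WT CIH females it was 58.7, 72.8, 125, 73.6 and 53.1 CPM, with the highest value in WT CIH 3. Without that library the FDR was 0.0593, and without 5XFAD CIH 1, 4 or 5 it was 0.0574, 0.0588 and 0.0622. Hsf1, the factor that drives this response, was lower in 5XFAD CIH than WT CIH females (log2FC −0.27 ± 0.067, FDR = 0.00437), at 48.8 to 57.3 against 56.4 to 68.5 CPM. Hspa1a and the small heat shock protein gene Hspb1 passed the test in no pair. Without female 5XFAD NX 4 the log2FC of Hspa1a under NX was 0.89 ± 0.31 (FDR = 0.0392), which rests on the choice of that library.

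High values of the inducible members came with high values of the isolation response genes in some libraries and not in others. The 17 isolation response genes summed to 5715 CPM in female WT CIH 3, which also had 683 CPM of Hspa1a and Hspa1b together, against 2483 to 3058 CPM and 28.1 to 255 CPM in the other 4 libraries of its group. In male 5XFAD CIH 1 the sums were 3878 and 397 CPM, against 1995 to 2562 and 11.0 to 105 CPM in the other 4. In male WT CIH 4 the 17 genes were at 1954 CPM, within the 1876 to 3024 CPM of its group, with 442 CPM of Hspa1a and Hspa1b. The part of tissue handling in the heat shock values was not tested.

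**Figure D4:**
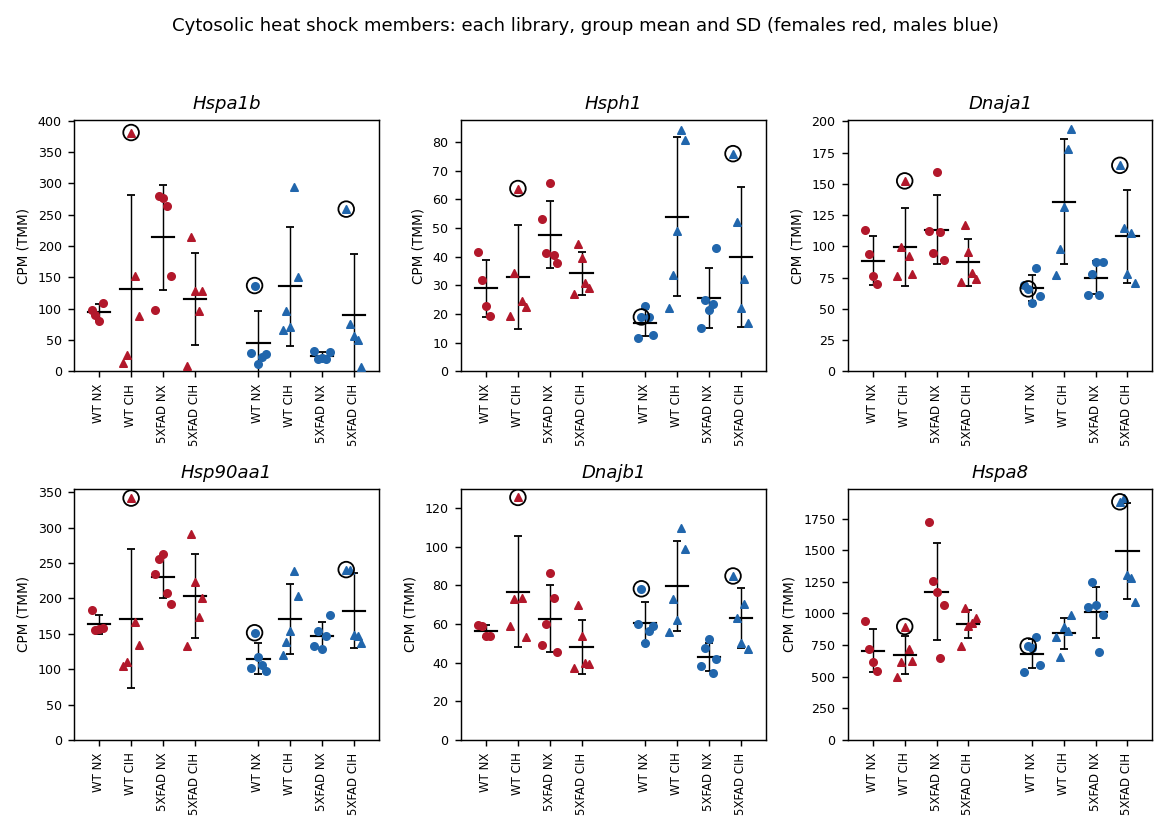
CPM (TMM scale, linear axis from 0) of 6 cytosolic heat shock members in every library, with circles for NX, triangles for CIH, females in red and males in blue, and bars for the group mean and SD. Rings mark female WT CIH 3, male WT NX 2 and male 5XFAD CIH 1. For Hsph1 and Dnaja1, 4 of 5 male WT CIH libraries lie above all WT NX libraries, and the ringed libraries are the highest of their groups for Hspa1b.

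The mitochondrial chaperonins Hspd1 (HSP60) and Hspe1 (HSP10), which fold imported matrix proteins as one complex, were higher in 5XFAD in all 4 genotype comparisons. Hspe1 in females was 31.3, 32.1, 38.2, 33.6 and 36.4 CPM in WT CIH and 85.3, 62.7, 46.1, 62.5 and 62.6 CPM in 5XFAD CIH. In males it was 46.0, 44.3, 47.9, 64.0 and 56.4 CPM in WT CIH and 137, 105, 127, 143 and 179 CPM in 5XFAD CIH. Neither sex had an overlap (log2FC 0.90 ± 0.14, FDR = 0.00011 in females and log2FC 1.45 ± 0.14, FDR = 1.42e-06 in males). Under NX Hspe1 was higher by 0.76 ± 0.20 in females (FDR = 0.0388) and 0.88 ± 0.25 in males (FDR = 0.026), where the CPM was 149.7, 149.5, 131, 66.5 and 66.4 in 5XFAD against 49.6, 55.4, 64.8, 78.6 and 61.7 in WT and 5XFAD NX 4 and 5 lay within the WT range.

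Hspd1 was 71.7, 68.4, 88.6, 81.0 and 72.7 CPM in WT CIH and 122, 118, 102, 113 and 124 CPM in 5XFAD CIH females (log2FC 0.60 ± 0.082, FDR = 4.53e-05), and 68.7, 71.0, 80.5, 96.0 and 92.9 CPM in WT CIH and 143, 114, 96.4, 114 and 116 CPM in 5XFAD CIH males (log2FC 0.54 ± 0.12, FDR = 0.00235). The genotypes were separate in both sexes. With library size scaling the male call was lost (log2FC 0.16, FDR = 0.329). Under NX it was 0.56 ± 0.16 higher in females (FDR = 0.0484) and 0.75 ± 0.13 higher in males (FDR = 0.00149). Without the libraries that stood apart, Hspe1 was higher under NX in females (log2FC 0.89 ± 0.12, FDR = 0.000248) and males (log2FC 1.22 ± 0.13, FDR = 3.64e-06). Hspe1 under NX in males failed the test in 8 of 18 alternatives, with FDR up to 0.138. Hspd1 was also higher without them (log2FC 0.67 ± 0.12, FDR = 0.00144 in females and log2FC 0.82 ± 0.12, FDR = 0.00013 in males). The annotated genes overlap by 112 bases on opposite strands, and whether the counting used the strand is not given in the sources used here.

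Of the 9 cytosolic heat shock members, Hsph1, Dnaja1, Hspa1b and Hsp90aa1 were higher in WT CIH than in WT NX males, where 13.6% of all genes were. Hsph1 (HSP110), a nucleotide exchange factor of HSP70, was 11.5, 19.0, 22.8, 18.9 and 12.6 CPM in WT NX and 22.2, 33.7, 48.9, 84.0 and 80.7 CPM in WT CIH (log2FC 1.66 ± 0.31, FDR = 0.00139). Dnaja1, a DnaJ partner of HSC70, was 68.9, 66.0, 54.8, 82.6 and 60.6 CPM in WT NX and 77.4, 97.9, 132, 178 and 194 CPM in WT CIH (log2FC 1.02 ± 0.21, FDR = 0.00227). For both, WT CIH 4 and 5 were the highest and WT CIH 1 lay within the WT NX range. Hspa1b (28.6, 137, 11.6, 22.2 and 27.5 against 66.4, 96.5, 70.7, 293 and 151 CPM) and Hsp90aa1 (96.7 to 151 against 119 to 239 CPM) were also higher (1.57 ± 0.56, FDR = 0.0457, and 0.56 ± 0.17, FDR = 0.0239). Hspa1b failed the test in 9 of 17 alternatives, DESeq2 included, with a log2FC from 1.07 without WT CIH 4 to 2.59 without WT NX 2, and Hsp90aa1 failed it in 5 of 17. Hspa1a (1.35 ± 0.49, FDR = 0.0515), Dnajb1 (0.38 ± 0.17, FDR = 0.112) and Hspb1 (−0.41 ± 0.50, FDR = 0.576) did not pass the test. No cytosolic member was lower, and of the 17 isolation response genes 1 was higher and none lower. Of 8 neutrophil markers 6 were lower, at 110 to 328 summed CPM in WT CIH against 232 to 1235 in WT NX. The 7 plasma and B cell markers summed to 442 to 573 CPM in WT CIH and 645 to 875 in WT NX, without overlap. Of the 5 tested, Cd79b and Ighm were lower and none was higher. The part of these shifts in the member changes was not tested.

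ER members moved both ways in WT males. Sel1l was 130.4, 145, 124, 122 and 114 CPM in WT NX and 162, 176, 188, 168 and 162 CPM in WT CIH, without overlap (log2FC 0.41 ± 0.084, FDR = 0.00219). Ern1, Hspa5 and Hyou1 were higher by 0.37, 0.33 and 0.30, and Calr, Sdf2l1 and Pdia3 were lower, with log2FC of −0.33, −0.45 and −0.29. These groups overlapped for all 6, and each call was lost in 4 to 10 of 17 alternatives. The summed CPM of the plasma and B cell markers was also lower without overlap in this comparison, as given above. Of the markers tested only Cd79b and Ighm were lower. Their part in the lower ER members was not tested. In the same comparison the median log2FC of all genes went with transcript length, from −0.37 under 1 kb to 0.14 above 4 kb. Sel1l (8555 bases), Ern1 (8173), Hyou1 (7230) and Hspa5 (4229) belong to the longest class, and Sdf2l1 (1108), Calr (2880) and Pdia3 (3139) to shorter ones. Relative to the median of their class, Sel1l was 0.28 higher and Sdf2l1 0.10 lower, whereas Hsph1 was 1.52 and Hspa1b 1.70 higher. The part of length in these calls was not tested.

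The WT male counts were sensitive to the fit. Fitting all 4 male groups together gave 0 of 39 members and 0 of all genes with an FDR below 0.05, with 12 members and 28.4% of all genes below an unadjusted p of 0.05. Library size scaling gave 13 members higher and none lower, and 18.8% and 10.4% of all genes. Leaving out one library gave 4 to 15 members and 21.9% to 31.9% of all genes, with 4 without WT CIH 4, 6 without WT CIH 5 or WT NX 3 or 5, and 7 without WT CIH 3. Sel1l, Hsph1 and Dnaja1 passed the test in all settings but the joint fit, where their FDR was 0.138, 0.0594 and 0.0594.

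In 5XFAD males, CIH against NX gave positive differences for 32 of 38 members with a median log2FC of 0.30, against −0.01 for all genes, and for all 11 ER chaperones, without a call. Dnajb9 (0.50 ± 0.13), Creld2 (0.74 ± 0.19) and Manf (0.73 ± 0.22) had the smallest unadjusted p, each with an FDR of 0.995. All 17 isolation response genes were also positive there, with a median of 0.46. Without 5XFAD NX 4 and 5, 31 members, 10 ER chaperones and 15 isolation response genes were positive, and the member median was 0.19. Without 5XFAD CIH 1 they were 29, 10 and 14, with a member median of 0.23. In 5XFAD females 11 of 38 were positive, with a median of −0.056, and all 9 cytosolic heat shock members were negative. Without 5XFAD NX 4 of the females, 5 were positive, with a median of −0.13. WT females had 11 of 37 positive and a median of −0.046. Over all genes the median log2FC ran from 0.10 under 1 kb to −0.021 above 4 kb in 5XFAD females and from 0.0026 to −0.011 in WT females. The 17 isolation response genes summed to a median of 3889 CPM in 5XFAD CIH and 4444 CPM in 5XFAD NX females, with overlap. The part of handling and length in these signs was not tested.

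The interaction of genotype and treatment, which asks whether the genotype difference under CIH departs from that under NX, passed the test for no member in females or males (0% and 0% of all genes), with 1 and 8 members below an unadjusted p of 0.05 (3.78% and 24.4% of all genes). In males this count was 2 without 5XFAD NX 4 and 5 (10.4% of all genes), and 4 to 14 without single libraries (16.9% to 31.2%), with 4 without WT NX 4, 13 without 5XFAD NX 1 or WT CIH 1 and 14 without 5XFAD CIH 5. In males Manf (0.98 ± 0.26, FDR = 0.117) and Sdf2l1 (0.96 ± 0.30, FDR = 0.118) had the smallest p. DESeq2 called 2 members in males (5.98% of all genes) and none in females. Leaving out male 5XFAD NX 1 gave 2 members (6.05% of all genes), and leaving out any other library none.

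The difference between males and females was tested for each pair of groups over the symbols listed once in both tables. Sex, age, length of exposure and annotation differ together between the cohorts and cannot be told apart. For genotype under CIH, 6 of 37 members differed (13.8% of all genes). The rise in 5XFAD was larger in males for Sdf2l1 (log2FC 0.81 ± 0.16, FDR = 0.00698), Manf (log2FC 0.72 ± 0.16, FDR = 0.0118), Calr (log2FC 0.48 ± 0.12, FDR = 0.0153), Dnajb11 (log2FC 0.38 ± 0.13, FDR = 0.0489) and Pdia3 (log2FC 0.35 ± 0.10, FDR = 0.025). Of the members past the test under CIH in 1 sex alone, Manf and Ern1 are in this group of 6, and the other members tested did not pass the test of the difference. Ern1 had a lower log2FC in males (log2FC −0.51 ± 0.16, FDR = 0.043). The calls of Dnajb11 and Ern1 were lost in 17 and 14 of 22 alternatives (FDR up to 0.317 and 0.0842), that of Pdia3 in 4 (FDR up to 0.224) and that of Calr in 1, library size scaling (FDR = 0.0785). For CIH against NX in WT, only Sel1l of 37 members differed in the main fit (log2FC 0.47 ± 0.10, FDR = 0.00619), where 15.5% of all genes did. The omission of single libraries gave 1 to 5 members there (10.1% to 20.3% of all genes). For genotype under NX (0.00694% of all genes) and for CIH in 5XFAD (0%), no member differed, with 4 and 13 members below an unadjusted p of 0.05 (3.23% and 4.37% of all genes) and none called by DESeq2. The 13 fell to 8 without male 5XFAD CIH 1 (3.61% of all genes). Ddit3 was not in this test, since the male table lists it in 2 rows.

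**Figure D5:**
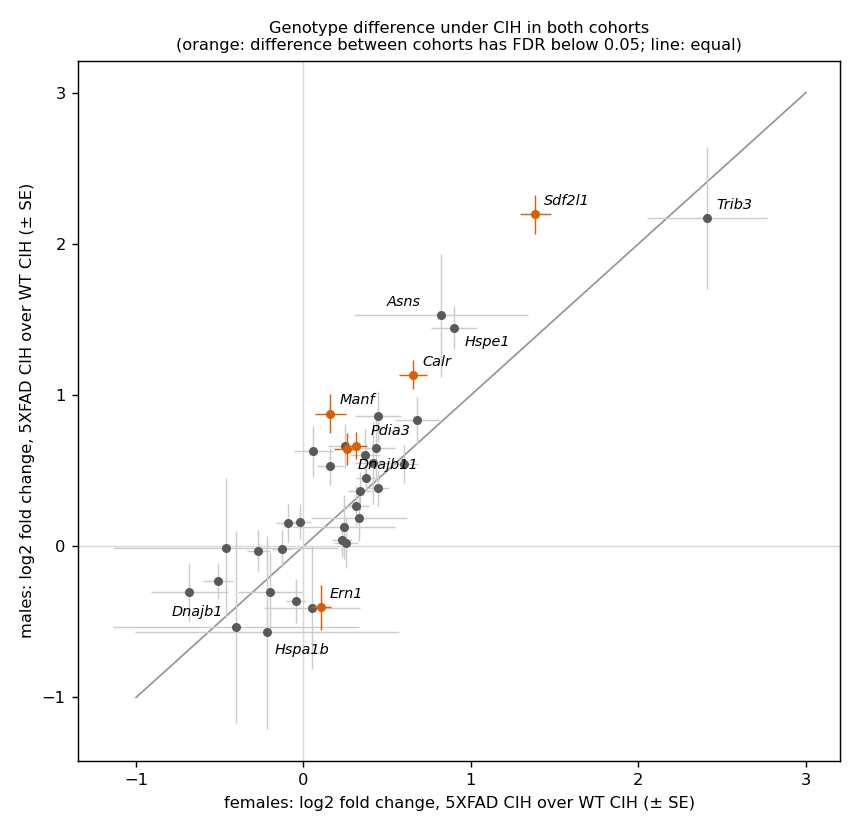
Log2 fold change of 5XFAD CIH over WT CIH in females (horizontal axis) and males (vertical axis) for the 38 members tested in both, with SE as bars and the line of equality in grey. Orange marks the 6 members whose male and female log2FC differed with an FDR below 0.05. Sdf2l1, Calr, Manf, Dnajb11 and Pdia3 lie above the line and Ern1 below it, and the calls of Dnajb11 and Ern1 were lost in 17 and 14 of 22 alternatives.

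The cohorts share no samples. Under CIH 14 members were higher in both, which is 77.8% of the 18 in females and 73.7% of the 19 in males, and no lower member was shared. Over all genes listed once in both tables the shares were 67.6% and 71.2% for higher genes and 59.8% and 66.9% for lower genes. Under NX Hsp90ab1, Hspd1, Hspe1 and Trib3 were shared, 66.7% of 6 and 44.4% of 9, against 71.1% and 47.4% over all genes. In males under CIH the median log2FC of all genes went from 0.41 under 1 kb to −0.20 above 4 kb, and in females from 0.15 to −0.014. Relative to their length class, Sdf2l1 was 1.86, Hspe1 1.11 and Calr 1.09 higher in males, and Ern1 0.21 and Eif2ak3 0.16 lower. The part of length in the difference between cohorts was not tested.

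The other genes of these pathways, 127 in 6 lists, were also tested. Under CIH 59 of 122 tested were higher and 15 lower in 5XFAD females, and 63 higher and 7 lower in males, against 26.2% and 25.7% of all genes in females and 25.3% and 23.7% in males. These counts are with TMM, and the counts of higher members under CIH fell with library size scaling, as given above. Psat1, an ATF4 target of serine synthesis, rose the most in the list of the integrated stress response (2.66 ± 0.078 in females, FDR = 3.91e-11, and 3.13 ± 0.12 in males, FDR = 9.32e-11), followed by the factor Atf5 (1.25 ± 0.25 and 2.16 ± 0.18). In the list of ER folding and import genes 17 of 25 and 16 of 26 were higher and none lower. Its largest changes included the translocon genes Ssr4 (1.09 ± 0.10 and 1.90 ± 0.18) and Sec61g (1.03 ± 0.18 and 1.91 ± 0.24). All genes under 1 kb had a median log2FC of 0.146 in females and 0.415 in males in this comparison. The part of length in these changes was not tested. Os9, a lectin of ERAD, rose by 0.86 ± 0.079 in females and 1.29 ± 0.099 in males, the HSP70 exchange factor Bag1 by 1.16 ± 0.084 and 1.68 ± 0.14, and the heat shock factor Hsf4 by 1.96 and 2.38.

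Under NX 7 of 122 of these genes were higher and 1 lower in 5XFAD females, and 26 higher and 2 lower in males, against 7.26% and 6.61% of all genes in females and 10.4% and 7.37% in males. Without female 5XFAD NX 4 the counts were 51 higher and 14 lower (21.8% and 22.2% of all genes), and without male 5XFAD NX 4 and 5 they were 54 and 3 (17.9% and 15.6%). In WT males 7 of 122 were higher and 36 lower under CIH, against 13.6% and 15% of all genes, with 12 of 26 ER folding and import genes lower and none higher. The joint fit of all 4 groups called none of these genes and 0 of all genes, and short genes had negative medians in this comparison. Among the latter Ssr4 fell by 0.66 ± 0.094 (FDR = 0.000317). Among the heat shock genes Chordc1, an HSP90 cochaperone, rose by 0.95 ± 0.18 (FDR = 0.00145).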

How the data were processed

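CD11b+ cells were profiled by bulk mRNA sequencing (Novogene) in 19 female and 20 male libraries, which were grouped by the genotype and treatment in their labels. Reads were aligned to GRCm38/mm10, HISAT2 is named in the submitters' processing notes, and the counting tool is not given in the sources used here. The authors deposited raw counts per gene in 1 table for each sex, and the deposited FPKM values, which are scaled to depth and transcript length, were used to compare levels between members. The male table lists Ddit3 in 2 rows, and the row with counts was used.

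Counts were scaled by TMM in edgeR 4.0.16 (R 4.3.3). A gene entered a fit where 3 or more of its libraries exceeded 1 CPM, each pair of groups was fitted alone with the quasi-likelihood F test, and p-values were adjusted over all genes tested by Benjamini and Hochberg. The SE is the absolute log2FC divided by the square root of F. CPM in the text are TMM-scaled over all libraries of a sex. Library totals of 13457293 to 25906121 counts put 1 CPM at 13.5 to 25.9 reads. Interactions and male against female differences were tested as contrasts, the latter over 34342 symbols listed once in both tables. DESeq2 1.42.0, the likelihood ratio test, library size scaling, other filters, joint fits, a replicate block and the omission of each library were alternatives, and the omission of male 5XFAD NX 4 and 5 together was added after the data were seen. The fits were tested on simulated data.

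The members and gene lists were chosen with earlier results of these data known. Libraries are given one by one for members past the test in the most comparisons and with the largest log2FC, with full statistics for up to 6 per comparison. Further members with statistics were picked after their values were seen, as were Gfap and the 4 short promoter stretches.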

Additional observations from a re-analysis of the deposited data

Results flagged for a closer look

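In 14 of 312 groups of 4 or 5 libraries, 1 library lay far from the others of its group in the CPM of a member. Chance alone flags about 1 in 20 groups, so that the number flagged is not above that of chance.

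Female WT CIH 3 was the highest of its group for Hsp90aa1 (341.7 CPM, next 166.4), Dnajb1 (125.5 CPM, next 73.56) and Ppp1r15a (75.24 CPM, next 38.05). Male 5XFAD CIH 1 was the highest for Hspa1b (258.9 CPM, next 76.12), Hspa1a (138.2 CPM, next 29.92) and Ppp1r15a (41.21 CPM, next 28.25). Both libraries also had the highest summed CPM of the isolation response genes in their group, 5715 and 3878. Male WT NX 2 was the highest for Hspa1b (136.9 CPM, next 28.64) and Hspa1a (69.98 CPM, next 20.43), with an isolation response sum of 2109 CPM, the second highest of its group.

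Asns was at 6.884 CPM in female 5XFAD CIH 4 (next 1.959) and at 9.141 CPM in male 5XFAD NX 2 (next 3.543). Hsp90aa1 was at 182.9 CPM in female WT NX 1 (next 158), Dnajb9 at 85.14 CPM in female 5XFAD NX 1 (next 65.83) and Hyou1 at 164.2 CPM in male 5XFAD NX 5 (next 124.4). Xbp1 was at 142.2 CPM in male 5XFAD NX 4, the lowest of its group, with the next at 207.7.

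For 7 members the male and female log2FC of the same contrast differed with an FDR below 0.05. For 5XFAD CIH over WT CIH the male minus female difference was 0.8106 for Sdf2l1, 0.7163 for Manf, 0.4796 for Calr, 0.3831 for Dnajb11, 0.3505 for Pdia3 and −0.5104 for Ern1. For WT CIH over WT NX it was 0.4708 for Sel1l. The calls of Dnajb11 and Ern1 were lost in 17 and 14 of 22 alternatives, those of Pdia3 and Calr in 4 and 1. Sex, age, exposure length and annotation cannot be told apart in these differences.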

How the results depend on the processing

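Counts of members with an FDR below 0.05 moved as follows. The added limit of an absolute log2FC above 1 left 2 members for females under NX (5.99% of all genes), 2 for females under CIH (13%), 2 for males under NX (8.25%), 5 for males under CIH (18.7%) and 3 for WT males under CIH against NX (2.51%). In females under NX the likelihood ratio test and DESeq2 each gave 11 (18.8% and 24.2% of all genes), library size scaling 2 (9.03%) and the omission of single libraries 0 to 20 (0.301% to 44%). In WT males the joint fit of 4 groups gave 0 (0% of all genes) and single omissions 4 to 15 (21.9% to 31.9%). For the male interaction the likelihood ratio test gave 1 (1.57%), DESeq2 2 (5.98%), no filter 4 (4.57%) and single omissions 0 to 2 (0% to 6.05%). For the difference between cohorts in WT, DESeq2 gave 4 (19.4%), library size scaling 4 (16.5%) and single omissions 1 to 5 (10.1% to 20.3%, with 4 without female WT CIH 3 or WT NX 4, 5 without male WT CIH 1, 3 without male WT CIH 2 or WT NX 1, 2 without male WT NX 4). For the difference in the genotype effect under CIH, library size scaling gave 3 (17.8%) and single omissions 3 to 6 (8.56% to 23%), with 3 without female 5XFAD CIH 2 or WT CIH 4 or male WT CIH 4. Single omissions gave 20 to 22 members for females under CIH (47% to 51.7%), 17 to 21 for males under CIH (44.3% to 52.1%) and 8 to 11 for males under NX (14.1% to 19%).

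Same-numbered libraries did not deviate together in all pairs, so the replicate number was not taken as a pairing. With the replicate block the counts were 0 for females under NX, 23 for females under CIH, 3 for males under NX, 19 for males under CIH, 8 for WT males and 0 elsewhere. The shares of all genes called in these 5 fits were 0.0482%, 52.3%, 8.83%, 48.1% and 25.7%. Among the calls that the block ended were Calr (FDR = 0.0907), Sdf2l1 (FDR = 0.0509) and Herpud1 (FDR = 0.0538) in males under NX. That of Hspa5 in males under CIH was also lost (FDR = 0.0586).

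Some called members passed the test in every alternative that tested them. These were 10 of 21 in females under CIH, 9 of 21 in males under CIH and 3 of 12 in males under NX. In females under NX (0 of 6) and WT males (0 of 11) there was none. The 9 in males under CIH were Asns, Calr, Hsp90ab1, Hspa8, Hspe1, Manf, Pdia3, Sdf2l1 and Trib3. Manf and Sdf2l1 also passed it in every alternative for the cohort difference under CIH. In males under CIH Trib3 and Asns had 16 alternatives and Calr 17. Both fell below 10 counts in some libraries and were not in the fit that needs this level in every one. The same holds for Trib3 in females under CIH and in males under NX. With library size scaling Hsp90b1 in males under CIH changed sign, to −0.0072. The cause was not tested. Trib3, Asns and Chac1 rest on few reads, and reads of Hspa1a and Hspa1b may be split between near-identical copies.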
